A study of Mus musculus with 12 samples.

Results

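The 38 genes described here encode the liver's machinery for moving, storing, splitting and rebuilding glucose. They comprise 5 genes of glucose transport and phosphorylation, 14 of glycolysis, 5 of gluconeogenesis and glucose release, 8 of glycogen metabolism, 2 of fructose and polyol metabolism and 4 of the pentose phosphate pathway. The genes were chosen by name for their place in these pathways, with earlier results of these data known. Each of the 38 symbols was found once among the 24537 genes of the deposited expression table. Of these genes, 35 reached 1 FPKM in 3 or more libraries and were tested within the 10593 genes that passed this filter. Hk1 and Hk2, hexokinases of other tissues, and Gapdh did not pass it.

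Liver RNA-Seq had been performed on 12 individually housed male C57Bl/6J mice that entered the study at 6 weeks of age. The Con mice ate ad libitum and the CR mice received 30% less food than the Con mice ate, with 3 mice of each group taken at day 25 and 3 other mice of each group at day 30. The comparisons asked how the transcripts of glucose metabolism differed between CR and Con before and after an interval that the study followed for changes in liver protein synthesis. According to the methods, all mice were given heavy water before sacrifice and the CR ration was offered once a day at midday. That ration was a fortified form of the Con diet, adjusted weekly to hold body weight at a set share of the Con mean. The hour at which the livers were taken is not given in the sources used here. A lower food intake, the fortified diet and a different time since the last meal therefore cannot be told apart. The RNA came from whole liver, in which fewer cells of a type and less RNA per cell cannot be told apart. The depth of the libraries, estimated from the steps of low FPKM, was 15748926 to 23345347 reads. By the same estimate, 78.1 to 84.3% of them lay on the exons that the FPKM count.

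Glucose enters and leaves hepatocytes through the transporter GLUT2. Glycolysis breaks it down to pyruvate, gluconeogenesis rebuilds it from pyruvate and other precursors, and the committed steps of the opposing directions are run by different enzymes. Glycogen synthase and phosphorylase extend and shorten the glycogen store, the pentose phosphate pathway supplies NADPH and ribose, and ketohexokinase and sorbitol dehydrogenase bring fructose and sorbitol into the same pool of sugar phosphates. In liver these genes are known to respond to insulin, glucagon, glucocorticoids, feeding time and the circadian clock.

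Levels are given as FPKM, which are scaled to transcript length and sequencing depth, and ran from 0.095 FPKM for Hk2 in a CR mouse to 2731 FPKM for Pck1 in another. The mean over the 12 mice was at least 100 FPKM for 11 genes, 10 to 100 for 13, 1 to 10 for 11 and under 1 for 3. Pck1 was the most abundant with a mean of 1962 FPKM, which placed it 22nd by mean level among all genes of the table, followed by Fbp1 with 551 FPKM and Sord with 494 FPKM. The liver pyruvate kinase Pklr stood at 42.1 FPKM against 1.76 FPKM for Pkm, the form of other tissues. Among the phosphofructokinases, the liver form Pfkl at 7.88 FPKM lay close to the muscle form Pfkm at 7.33 FPKM, which is not among the 38 genes, and the platelet form Pfkp was at 1.04 FPKM. Gapdh, a glycolytic enzyme known to be abundant in every tissue, was listed at only 0.447 to 1.04 FPKM. Of the 100-base stretches of its transcript, 85.8% also occur letter for letter in transcripts of other genes, among them 82 annotated as pseudogenes, so its level was not interpreted.

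**Figure D1:**
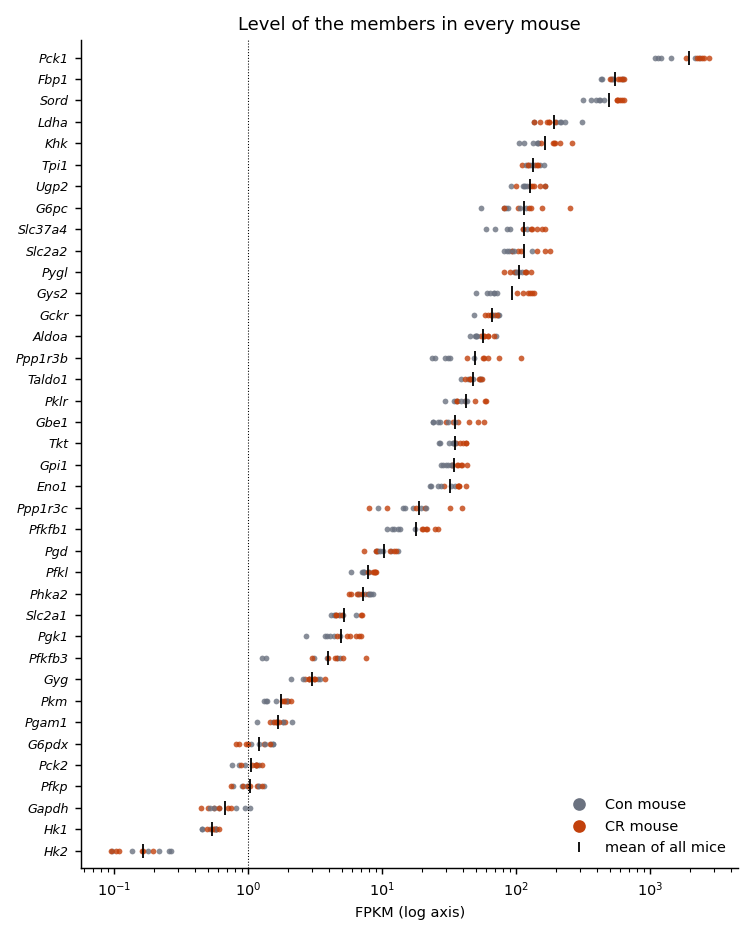
Level of each of the 38 genes in each of the 12 mice, as FPKM on a log axis, ordered by the mean over all mice (black tick); gray points are Con mice and orange points CR mice, and the dotted line marks 1 FPKM. Pck1 stands alone above 1000 FPKM in every mouse, and for Gys2, Sord and Pfkfb1 the CR mice lie to the right of the Con mice.

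These genes of glucose metabolism were, where called at a single day, higher under CR. Called genes were those with a Benjamini-Hochberg adjusted p under 0.1 over all genes tested with limma on log2(FPKM + 1). At day 25, 7 of the 35 tested genes were higher in the CR mice (Ppp1r3b, Gys2, Sord, Pfkfb1, Pgk1, Gbe1 and Tkt) and 0 were lower, where 5.6% of all tested genes were called higher and 9.34% lower. At day 30, 14 of the 35 were higher (Pck1, Ppp1r3b, Gys2, Pfkfb1, Slc37a4, Khk, Gbe1, Slc2a2, Eno1, Sord, Pgk1, Pklr, Gpi1 and Pfkl) and 0 were lower, against 8.33% higher and 16.4% lower among all tested genes. The log2 fold change was negative for 8 of the 35 genes at each day, and for 0 of them at an unadjusted p under 0.05 on either day, and Tpi1 was called lower at day 25 when the libraries were scaled to TPM or by quantiles. Over all genes the calls split into 593 higher and 989 lower at day 25 and 882 higher and 1737 lower at day 30. With median-ratio scaling of the libraries the same split was 929 to 799 and 1319 to 1238, while the lower calls among the 35 genes were 0 at both days under that scaling too. The median log2 fold change of the 35 genes was 0.21 at day 25 and 0.23 at day 30, beside -0.04 and -0.07 for all genes tested.

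The genes called higher on both days were 6, which is 6 of the 7 called at day 25 and 6 of the 14 called at day 30: Gys2, Ppp1r3b, Gbe1, Pfkfb1, Pgk1 and Sord. Fitting both days together with a term for day called 17 of the 35 genes higher and 2 lower, Ldha and Phka2, where 14.5% of all tested genes were called higher and 26.1% lower. At a change of at least 2-fold on the log2(FPKM + 1) scale, 1 gene was called higher at day 25, Ppp1r3b, and 1 at day 30, Pck1, against 0.84% and 0.925% of all tested genes. The 3 CR mice lay above all 3 Con mice of the day for 12 of the 35 genes at day 25, where this was so for 10.2% of all tested genes, and for 16 at day 30, where it was so for 12.1%. They lay below all 3 Con mice for 1 gene at day 25, Ldha, and for 0 at day 30, against 18% and 24.3% of all tested genes. Summed over the 38 genes, the FPKM made up 0.903 to 1.13% of the library's total in the Con mice and 1.19 to 1.28% in the CR mice at day 25, and 0.824 to 0.879% and 1.18 to 1.34% at day 30, and the ranges of the groups did not overlap on either day. Such sums follow the few most abundant genes more than the 38 as a set. Pck1 alone had a mean of 1153 FPKM in the Con mice and 2366 FPKM in the CR mice at day 30. How often other sets of genes would separate in this way was not tested.

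**Figure D2:**
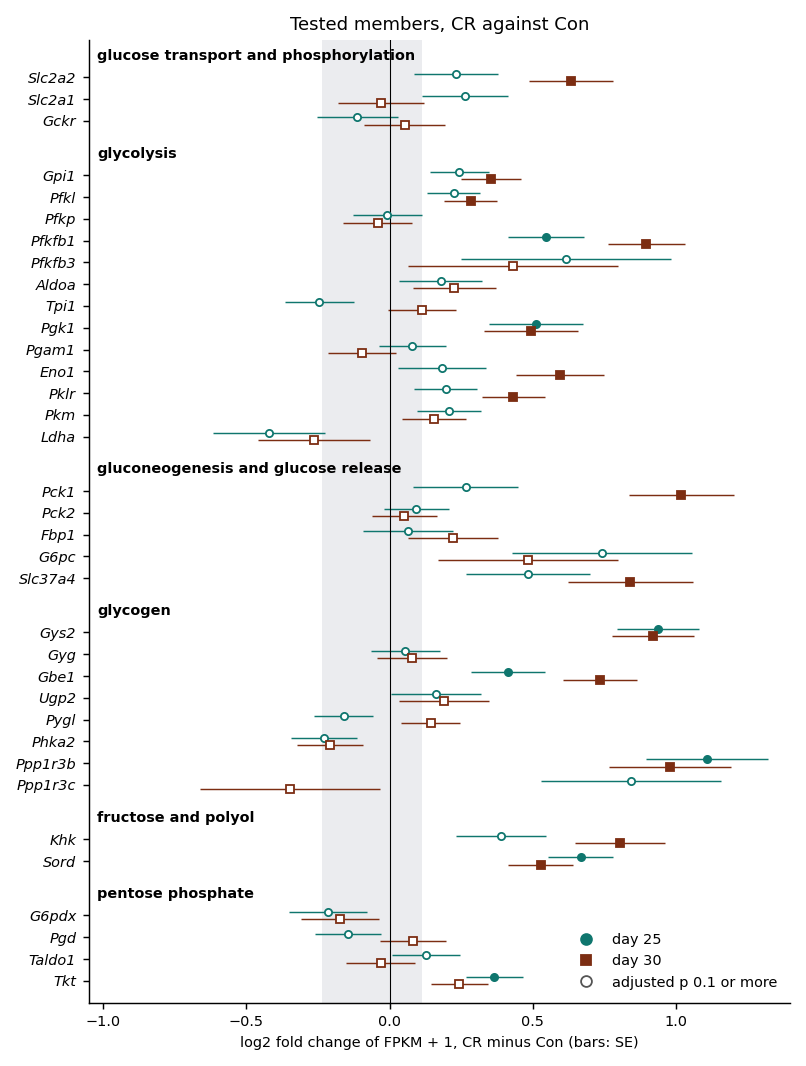
Log2 fold change of FPKM + 1 between CR and Con for the 35 tested genes, by role, with circles for day 25, squares for day 30, bars for the SE and filled symbols for an adjusted p under 0.1 (3 mice per group). The gray band runs from the lower to the upper quartile of all tested genes, taking the wider limit of the days, and every filled symbol lies to its right.

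Of the 8 glycogen genes, Gys2, Ppp1r3b and Gbe1, all of glycogen synthesis, were called higher on both days and none lower on either. This is 37.5% higher on each day, beside 5.6% of all tested genes at day 25 and 8.33% at day 30. Gys2, the liver glycogen synthase (chr6:142422613-142473109, mm10, − strand), rose close to 2-fold on both days. At day 25, Gys2 stood at 50, 63.5 and 71.95 FPKM in the Con mice and 124, 131 and 102 FPKM in the CR mice. At day 30, Gys2 stood at 60.4, 68.1 and 68.9 FPKM in the Con mice and 112, 137 and 127 FPKM in the CR mice. Every CR mouse lay above every Con mouse, and the log2 fold change was 0.94 ± 0.14 (SE, 3 CR against 3 Con mice) with a limma adjusted p of 0.00273 at day 25 and 0.92 ± 0.14 with an adjusted p of 0.00155 at day 30. The SE of a single day comes from the limma fit of all 4 groups. It is therefore equal on both days for a gene and is not the spread of the mice compared alone. Ppp1r3b (chr8:35375741-35388137, + strand) encodes GL, the liver subunit that directs protein phosphatase 1 to glycogen, where the phosphatase activates glycogen synthase. At day 25, Ppp1r3b stood at 48.6, 31.96 and 31.1 FPKM in the Con mice and 109, 61.9 and 75.2 FPKM in the CR mice. At day 30, Ppp1r3b stood at 24.97, 23.6 and 29.4 FPKM in the Con mice and 43.4, 57.6 and 56.4 FPKM in the CR mice. The groups did not overlap on either day, with a log2 fold change of 1.11 ± 0.21 (adjusted p = 0.00809) at day 25 and 0.98 ± 0.21 (adjusted p = 0.00899) at day 30. Both groups were higher at day 25 than at day 30, the CR mice by 0.61 and the Con mice by 0.48 on the log2 scale, and neither difference between days was called (adjusted p = 0.403 and 0.676).

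Gbe1 (chr16:70313949-70569720, + strand), the branching enzyme that forms the branch points of glycogen, was higher in each CR mouse than in any Con mouse of its day. At day 25, Gbe1 stood at 27.1, 23.96 and 24.01 FPKM in the Con mice and 36.9, 30.2 and 34.1 FPKM in the CR mice. At day 30, Gbe1 stood at 26.2, 31.3 and 34.9 FPKM in the Con mice and 44.9, 52.4 and 58.1 FPKM in the CR mice. Its log2 fold change was 0.41 ± 0.13 (adjusted p = 0.0671) at day 25 and 0.73 ± 0.13 (adjusted p = 0.00319) at day 30. The day 25 call was lost when Con8, Con9, CR7 or CR9 was left out (adjusted p up to 0.19) and under TPM or quantile scaling, while the day 30 call was kept in every fit that was run. The genes of priming and precursor supply, Gyg, the protein primer glycogenin, and Ugp2, which makes UDP-glucose, were not called, with log2 fold changes from 0.06 ± 0.12 for Gyg at day 25 to 0.19 ± 0.16 for Ugp2 at day 30.

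The genes of glycogen breakdown among the 8, Pygl and Phka2, were not called on either day. Pygl (chr12:70190815-70227683, − strand), the liver phosphorylase that releases glucose 1-phosphate from glycogen, stood at 96.5 to 106 FPKM in the Con mice and 81.7 to 98.8 FPKM in the CR mice at day 25. At day 30 its ranges were 102 to 119 and 117 to 129 FPKM. The groups overlapped on both days, and its log2 fold change was -0.16 ± 0.10 (adjusted p = 0.365) and 0.14 ± 0.10 (adjusted p = 0.357). Phka2, the liver regulatory subunit of phosphorylase kinase, which activates phosphorylase, was called lower only when both days were fitted together, by a log2 fold change of -0.22 ± 0.08 (adjusted p = 0.0479). It stood at 7.42 to 8.56 FPKM in Con and 5.89 to 7.82 FPKM in CR mice at day 25 and at 6.61 to 8.096 and 5.67 to 7.097 FPKM at day 30, so the groups overlapped on each day, and the call was lost without CR9 (adjusted p = 0.108) or CR12 (adjusted p = 0.101) and under median-ratio or quantile scaling. Outside the 38 genes, others of glycogen breakdown were called lower on both days. Phkb, another subunit of phosphorylase kinase, had log2 fold changes of -0.40 ± 0.10 (adjusted p = 0.0315) and -0.46 ± 0.10 (adjusted p = 0.00998). Gaa, the lysosomal glucosidase that degrades glycogen, had -0.34 ± 0.11 (adjusted p = 0.0653) and -0.40 ± 0.11 (adjusted p = 0.0251). All CR mice lay below all Con mice of their day for both genes, which were named after their values were seen.

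Ppp1r3c, another glycogen-targeting subunit of protein phosphatase 1, was not called on either day. At day 25, Ppp1r3c stood at 19.7, 14.9 and 14.5 FPKM in the Con mice and 31.99, 39.6 and 20.9 FPKM in the CR mice. At day 30, Ppp1r3c stood at 17.1, 9.405 and 21.4 FPKM in the Con mice and 8.05, 10.9 and 17.9 FPKM in the CR mice. The CR mice were all above the Con mice at day 25 and overlapped them at day 30, with log2 fold changes of 0.84 ± 0.31 (adjusted p = 0.117) and -0.35 ± 0.31 (adjusted p = 0.471). The difference between these fold changes was -1.19 ± 0.44 with an adjusted p of 1 for the interaction, so it was not shown to differ between days. Another subunit of this family, Ppp1r3g, which is not among the 38 genes and was drawn from a list of further enzymes of the same pathways, was the most changed gene of that list. At day 25, Ppp1r3g stood at 0, 0.52 and 0.129 FPKM in the Con mice and 5.47, 1.43 and 9.28 FPKM in the CR mice. At day 30, Ppp1r3g stood at 0.127, 0.387 and 0.231 FPKM in the Con mice and 22.6, 2.95 and 6.47 FPKM in the CR mice. The groups were far apart on both days and the CR mice varied widely among themselves. Ppp1r3g passed the filter on low FPKM only through the CR mice, so a gene at its level had to differ to be tested, and its log2 fold change of 2.19 ± 0.57 (adjusted p = 0.0333) at day 25 and 2.83 ± 0.57 (adjusted p = 0.00613) at day 30 understates a change from so low a level. The day 25 call was lost without CR9 (adjusted p = 0.122) and with voom on recovered reads (adjusted p = 0.114).

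**Figure D3:**
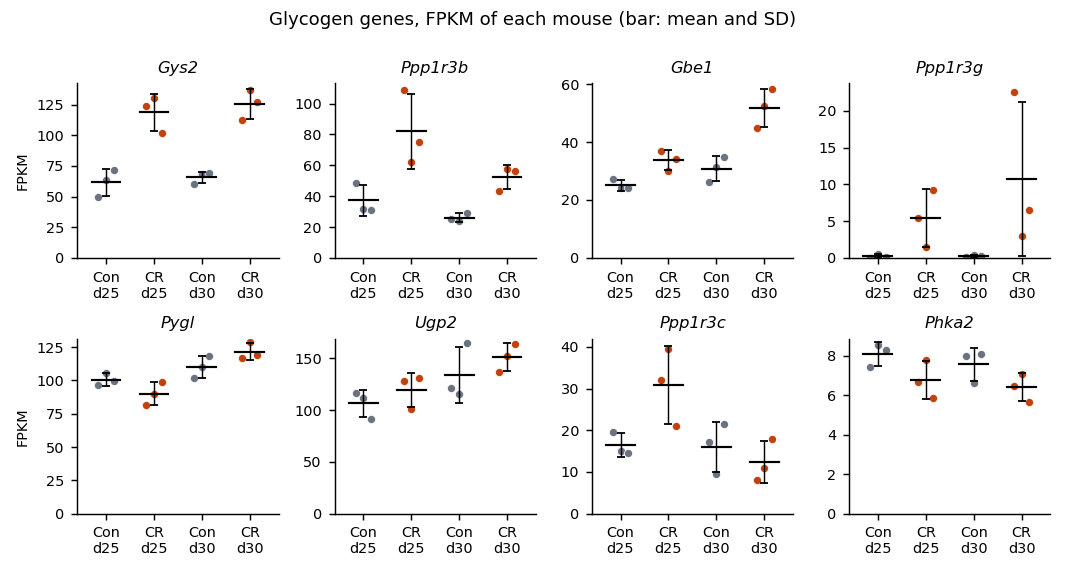
FPKM of 8 glycogen genes in every mouse, with axes that start at 0; gray points are Con mice, orange points CR mice, and bars give the mean and SD of the 3 mice. Gys2, Ppp1r3b, Gbe1 and Ppp1r3g are higher in every CR mouse than in any Con mouse of the same day, whereas Pygl, Ugp2 and Phka2 overlap.

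The ratio of Gys2 to Pygl in single mice set synthase against phosphorylase. The log2 ratio of their FPKM was -0.95, -0.73 and -0.47 in the Con mice and 0.60, 0.54 and 0.04 in the CR mice at day 25. At day 30 it was -0.75, -0.69 and -0.79 in the Con mice and -0.06, 0.09 and 0.09 in the CR mice. Phosphorylase transcripts exceeded synthase transcripts in all 6 Con mice, whereas the synthase was at or above the phosphorylase in 5 of the 6 CR mice and just under it in CR10. The mean shift was 1.11 at day 25 and 0.78 at day 30, and the groups were separate on both days. The ratios are given as descriptions, with no test.

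Of the 5 genes of gluconeogenesis and glucose release, 2 were called higher at day 30, Pck1 and Slc37a4, and 0 at day 25 (2 at an unadjusted p under 0.05). The shares were 40% at day 30 and 0% at day 25, beside 8.33% and 5.6% of all tested genes. At day 25, 2635 of the 10593 genes tested had an unadjusted limma p under 0.05. Pck1 (chr2:173153073-173159253, + strand), the cytosolic phosphoenolpyruvate carboxykinase that opens the path from oxaloacetate to glucose, was about 2-fold higher under CR at day 30. At day 25, Pck1 stood at 1436, 2366 and 2167 FPKM in the Con mice and 2245, 2462 and 2314 FPKM in the CR mice. At day 30, Pck1 stood at 1209, 1154 and 1094 FPKM in the Con mice and 2731, 1857 and 2510 FPKM in the CR mice. At day 25 the groups overlapped, with the Con7 mouse low and the other Con mice within the range of the CR mice or just beside it, whereas at day 30 they were far apart. The log2 fold change was 0.27 ± 0.18 (adjusted p = 0.406) at day 25 and 1.02 ± 0.18 (adjusted p = 0.00344) at day 30. The Con mice were lower at day 30 than at day 25, by a log2 difference of -0.76 ± 0.18 (adjusted p = 0.415), and the CR mice differed by -0.00 ± 0.18 (adjusted p = 0.998). The CR effect itself differed between days by 0.75 ± 0.26 with an unadjusted p of 0.0128, the smallest of the 35 genes, and an adjusted p of 1.

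Slc37a4 (chr9:44396927-44402968, + strand), which carries glucose 6-phosphate into the endoplasmic reticulum, and G6pc (chr11:101367716-101377903, + strand), the phosphatase that frees glucose there, act in sequence. At day 25, Slc37a4 stood at 69.99, 121 and 113 FPKM in the Con mice and 113, 142 and 165 FPKM in the CR mice. At day 30, Slc37a4 stood at 85.9, 59.8 and 89.8 FPKM in the Con mice and 157, 132 and 130.3 FPKM in the CR mice. The Slc37a4 groups overlapped at day 25 and were separate at day 30, with log2 fold changes of 0.48 ± 0.22 (adjusted p = 0.189) and 0.84 ± 0.22 (adjusted p = 0.0213). With the replicate numbers of the day 25 mice as a block, the day 25 difference passed the threshold (adjusted p = 0.0816). At day 25, G6pc stood at 119, 86.7 and 84.4 FPKM in the Con mice and 156, 104 and 255 FPKM in the CR mice. At day 30, G6pc stood at 81.8, 107 and 54.5 FPKM in the Con mice and 129, 126 and 80.7 FPKM in the CR mice. G6pc varied more between mice than its neighbors and overlapped on both days, with log2 fold changes of 0.74 ± 0.31 (adjusted p = 0.165) and 0.48 ± 0.31 (adjusted p = 0.314). It was called higher only over both days together, by 0.61 ± 0.22 (adjusted p = 0.0472), and that call was lost without Con12 (adjusted p = 0.105).

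The other genes of this branch were not called. Fbp1, fructose 1,6-bisphosphatase, stood at 436 to 627 FPKM in Con and 523 to 618 FPKM in CR mice at day 25 and at 432 to 529 and 498 to 639 FPKM at day 30, with a log2 fold change of 0.06 ± 0.16 and 0.22 ± 0.16. Pck2, the mitochondrial carboxykinase, was near 1 FPKM in all mice and reached that level in 8 libraries. Its log2 fold changes were 0.09 ± 0.11 and 0.05 ± 0.11. Slc2a2 (chr3:28697903-28728360, + strand) encodes GLUT2, through which the liver takes up and releases glucose. At day 25, Slc2a2 stood at 85.4, 80.9 and 93.99 FPKM in the Con mice and 109.5, 104 and 93.1 FPKM in the CR mice. At day 30, Slc2a2 stood at 97.2, 88.4 and 131 FPKM in the Con mice and 143, 165 and 181 FPKM in the CR mice. The groups overlapped at day 25 and did not at day 30, and the log2 fold change was 0.23 ± 0.15 (adjusted p = 0.356) and 0.63 ± 0.15 (adjusted p = 0.0128). Slc2a1, the transporter GLUT1 of most other tissues, and Gckr were not called, with Gckr at 65.6 to 74.8 FPKM in Con and 62.1 to 69.7 FPKM in CR mice at day 25.

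Promoter sequence was read for the genes that had a RefSeq window in GRCm38.p6, the same build as mm10, from 250 bases before to 50 after the transcription start. A window was found for 36 of the 38 genes, and Gys2 and Ppp1r3b were without one. The 5 short motifs searched on both strands were the E-box CACGTG, bound by clock and carbohydrate-response factors, the half-site TGACG of the cAMP response element, the cAMP response element TGACGTCA, its variant TTACGTCA as in Pck1, and the forkhead motif TGTTTAC. The half-site is contained in both longer elements. The variant TTACGTCA was listed as that of Pck1, so its match in Pck1 was given in advance and carries no weight. The E-box lay in 4 of the 36 windows against 7.24% of all 27025 genes with a window, the half-site in 10 against 21.02%, the full element in 1 (Ldha) against 1.88%, the Pck1 type in 1 (Pck1) against 0.533%, and the forkhead motif in 0 against 3.55%. Among the 12 genes called at day 30 that had a window, 3 held any of these letters, Pck1, Slc37a4 and Khk. All 3 held the half-site, which lay in 21.02% of all genes with a window, so the count does not set the called genes apart. The share of all genes that held any of the 5 motifs was not counted. The last 150 bases before the start of Pck1, Slc37a4 and Khk are printed below with those of Ldha. Ldha was the gene with the most matches and the only one whose CR mice all lay below the Con mice at day 25. Capitals mark the matches.
Pck1, chr2:173152923-173153072, + strand: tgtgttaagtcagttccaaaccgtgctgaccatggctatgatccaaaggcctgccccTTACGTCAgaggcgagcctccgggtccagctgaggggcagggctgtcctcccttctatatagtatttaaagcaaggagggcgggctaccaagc
Slc37a4, chr9:44396796-44396945, + strand: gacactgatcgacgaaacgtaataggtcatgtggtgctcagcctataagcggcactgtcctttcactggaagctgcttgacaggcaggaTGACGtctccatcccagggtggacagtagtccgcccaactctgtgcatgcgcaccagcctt
Khk, chr5:30921409-30921558, + strand: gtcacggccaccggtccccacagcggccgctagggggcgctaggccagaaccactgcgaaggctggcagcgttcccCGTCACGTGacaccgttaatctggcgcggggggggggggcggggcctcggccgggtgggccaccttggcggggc
Ldha, chr7:46845654-46845803, + strand: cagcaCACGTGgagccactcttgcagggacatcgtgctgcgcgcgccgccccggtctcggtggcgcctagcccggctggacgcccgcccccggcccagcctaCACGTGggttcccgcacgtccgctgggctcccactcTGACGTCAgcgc
In Pck1 the match begins 93 bases before the start, in Slc37a4 the half-site begins 61 bases before it, and in Khk a half-site on the opposite strand at 74 bases overlaps the E-box at 71 bases. Ldha holds an E-box at 145 and another at 48 bases and the full element at 12 bases before the start. A match describes these letters only, and windows without one say nothing about the factors.

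Of the 13 tested glycolytic genes, 6 were called higher at day 30 (46.15%, beside 8.33% of all tested genes) and 2 at day 25 (15.4%, beside 5.6%), and none lower. Pfkfb1 (chrX:150589921-150643878, + strand), the liver form of the enzyme that makes and breaks fructose 2,6-bisphosphate and so sets the balance of glycolysis and gluconeogenesis, had the largest fold change of those called on each day. At day 25, Pfkfb1 stood at 13.2, 13.5 and 17.8 FPKM in the Con mice and 21.4, 24.9 and 19.7 FPKM in the CR mice. At day 30, Pfkfb1 stood at 11.9, 10.8 and 12.3 FPKM in the Con mice and 26.1, 21.8 and 20.3 FPKM in the CR mice. The groups did not overlap on either day, and the log2 fold change was 0.55 ± 0.13 (adjusted p = 0.0246) at day 25 and 0.90 ± 0.13 (adjusted p = 0.00115) at day 30. Its relative Pfkfb3, which favors glycolysis, ranged from 1.26 to 7.54 FPKM among single mice and had the largest SE of the 35 genes, with log2 fold changes of 0.62 ± 0.37 (adjusted p = 0.325) and 0.43 ± 0.37 (adjusted p = 0.442).

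The upper and lower steps of glycolysis gave smaller differences. Gpi1, which converts glucose 6-phosphate to fructose 6-phosphate, stood at 28.5 to 32.7 FPKM in Con and 36.8 to 42.9 FPKM in CR mice at day 30, and Pfkl, the liver phosphofructokinase, at 5.85 to 7.302 and 7.85 to 8.92 FPKM. Neither overlapped between the groups, with log2 fold changes of 0.35 ± 0.10 (adjusted p = 0.0366) and 0.28 ± 0.09 (adjusted p = 0.0554). The Gpi1 call was lost without Con12 or CR10 (adjusted p up to 0.136) and the Pfkl call without Con11, CR10 or CR12 (adjusted p up to 0.203) and when only the day 30 mice were fitted (adjusted p = 0.115). At day 25 both genes were also higher in every CR mouse, by 0.24 ± 0.10 and 0.22 ± 0.09, without passing the threshold (adjusted p = 0.168 and 0.156).

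Eno1, the enolase of the penultimate step, and Pklr (chr3:89136623-89146594, + strand), the liver pyruvate kinase that makes pyruvate and ATP, were called at day 30. At day 30, Eno1 stood at 26.3, 22.7 and 27.6 FPKM in the Con mice and 42.4, 37.1 and 37.5 FPKM in the CR mice. At day 30, Pklr stood at 42.9, 38.6 and 41.7 FPKM in the Con mice and 49.7, 59.4 and 58.6 FPKM in the CR mice. Both were higher in all CR mice, with log2 fold changes of 0.60 ± 0.15 (adjusted p = 0.0212) and 0.43 ± 0.11 (adjusted p = 0.0202). At day 25 the Eno1 groups overlapped (0.18 ± 0.15, adjusted p = 0.495), while the Pklr ranges of 29.5 to 35.9 FPKM in Con and 36.3 to 41.96 FPKM in CR mice were narrowly separate (0.20 ± 0.11, adjusted p = 0.296). Of the 100-base stretches of the Eno1 transcript 59% recur in other transcripts, among them Eno1b, and 21.8% of those of Pklr lie in the neighboring gene Hcn3, so reads can be split between them. Pgk1, which makes the first ATP of glycolysis, was called on both days, at 0.51 ± 0.16 (adjusted p = 0.0725) and 0.49 ± 0.16 (adjusted p = 0.0595). Its FPKM were 2.698 to 4.83 in Con and 5.49 to 6.34 in CR mice at day 25 and 3.73 to 4.39 and 4.63 to 6.92 at day 30. With 67% of its stretches shared with 3 processed pseudogenes its level is uncertain, and its call was lost without any one of 5 mice at day 25 (Con7, Con9, CR7, CR8 and CR9, adjusted p up to 0.232) and of 4 at day 30 (Con11, Con12, CR10 and CR11, adjusted p up to 0.191), and on both days with no filter on low values.

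Ldha (chr7:46845804-46855627, + strand), which interconverts pyruvate and lactate, had negative fold changes on both days. At day 25, Ldha stood at 198, 233 and 312 FPKM in the Con mice and 171, 197 and 177 FPKM in the CR mice. At day 30, Ldha stood at 216, 214 and 137 FPKM in the Con mice and 151, 178 and 136 FPKM in the CR mice. All CR mice were below the Con mice at day 25, and at day 30 the groups overlapped. The log2 fold change was -0.42 ± 0.20 (adjusted p = 0.203) and -0.26 ± 0.20 (adjusted p = 0.376), and Ldha was called lower only over both days, by -0.34 ± 0.13 (adjusted p = 0.0683). That call was lost without any one of 7 mice (Con9, CR7, CR9, Con10, Con11, CR10 and CR12, adjusted p up to 0.141), with median-ratio scaling and with no filter on low values. Pkm, the pyruvate kinase of other tissues, was near 1.76 FPKM and was called higher over both days by 0.18 ± 0.08 (adjusted p = 0.0853), a call that 9 of the 12 single-mouse omissions ended (adjusted p up to 0.179) and that was also lost with no filter on low values. Aldoa, Tpi1, Pgam1 and Pfkp were not called at either day or over both days, although Tpi1 passed at day 25 under the scalings named above, and their log2 fold changes lay between -0.25 ± 0.12 for Tpi1 at day 25 and 0.23 ± 0.14 for Aldoa at day 30. Other transcripts also hold 39.7% of the 100-base stretches of Pgam1, 16% of those of Pfkp, 9.82% of those of Pkm and 7.4% of those of Gpi1.

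**Figure D4:**
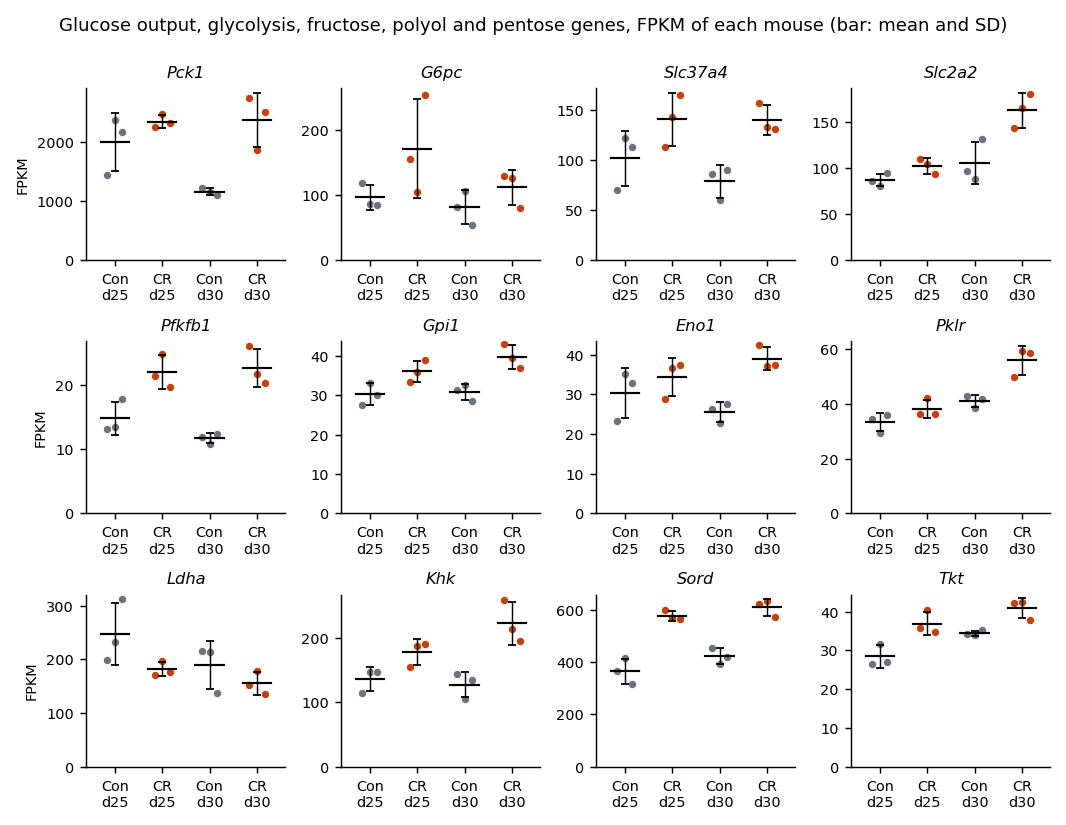
FPKM of 12 genes of glucose output, glycolysis, fructose, polyol and pentose metabolism in every mouse, with axes that start at 0; gray points are Con mice, orange points CR mice, and bars give the mean and SD of the 3 mice. At day 30 the Con and CR mice are separate for Pck1, Slc37a4, Slc2a2, Pfkfb1, Gpi1, Eno1, Pklr, Khk, Sord and Tkt and overlap for G6pc and Ldha.

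Both genes of fructose and polyol entry were called higher at day 30, where 8.33% of all tested genes were. Sord (chr2:122234839-122265337, + strand), sorbitol dehydrogenase, which turns sorbitol into fructose, was called on both days. At day 25, Sord stood at 365, 414 and 318 FPKM in the Con mice and 600.1, 569.6 and 564 FPKM in the CR mice. At day 30, Sord stood at 455, 392 and 421 FPKM in the Con mice and 621, 635 and 573 FPKM in the CR mice. The CR mice clustered tightly above the Con mice, with a log2 fold change of 0.67 ± 0.11 (adjusted p = 0.00458) and 0.53 ± 0.11 (adjusted p = 0.0088). Of its 100-base stretches 21.2% recur in a processed pseudogene. Khk (chr5:30921559-30931248, + strand), ketohexokinase, phosphorylates fructose in its first step in the liver. At day 25, Khk stood at 114, 147 and 146 FPKM in the Con mice and 155, 188 and 190.5 FPKM in the CR mice. At day 30, Khk stood at 143, 105 and 134 FPKM in the Con mice and 259.6, 214 and 195 FPKM in the CR mice. The groups were separate on both days, and the log2 fold change was 0.39 ± 0.16 (adjusted p = 0.146) at day 25 and 0.80 ± 0.16 (adjusted p = 0.0054) at day 30.

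Of the 4 pentose phosphate genes, Tkt (chr14:30549131-30574726, + strand), the transketolase that links pentoses back to glycolysis, was called at day 25. This is 25% of them, beside 5.6% of all tested genes. At day 25, Tkt stood at 26.6, 31.8 and 26.98 FPKM in the Con mice and 35.7, 40.4 and 34.6 FPKM in the CR mice. At day 30, Tkt stood at 34.1, 33.8 and 35.1 FPKM in the Con mice and 42.3, 42.5 and 37.95 FPKM in the CR mice. Its CR mice lay above its Con mice on both days, with a log2 fold change of 0.37 ± 0.10 (adjusted p = 0.0391) at day 25 and 0.24 ± 0.10 (adjusted p = 0.114) at day 30. The day 25 call was lost without Con7, Con9 or CR8 (adjusted p up to 0.125) and when only the day 25 mice were fitted (adjusted p = 0.106), and TPM, median-ratio or quantile scaling brought the day 30 difference past the threshold. The oxidative enzymes that make NADPH, G6pdx and Pgd, and the transaldolase Taldo1 were not called. G6pdx stood at 1.05 to 1.55 FPKM in Con and 0.816 to 1.32 FPKM in CR mice at day 25 and 1.21 to 1.48 and 0.857 to 1.45 FPKM at day 30, close to the filter's limit, with log2 fold changes of -0.22 ± 0.14 (adjusted p = 0.36) and -0.17 ± 0.14 (adjusted p = 0.408).

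With the model and scaling used throughout, no difference between the days was called among these genes. The CR effect was not called different between day 30 and day 25 for any of the 35 genes (0 called by limma, 2 at an unadjusted p under 0.05), where 0.00944% of all tested genes were called. Within the CR mice, 0 of the 35 were called between the days (8 at an unadjusted p under 0.05) against 0.321% of all tested genes, and within the Con mice 0 were called (7 at an unadjusted p under 0.05) against 0%. Of all 10593 genes tested, 366 had an unadjusted limma p under 0.05 for the CR effect between the days. Within the CR mice 917 did so, and within the Con mice 765. The genes nearest to a call within the CR mice were Pklr, at 0.54 ± 0.11 (adjusted p = 0.1), Gbe1, at 0.60 ± 0.13 (adjusted p = 0.101), and Slc2a2, at 0.66 ± 0.15 (adjusted p = 0.115), all higher at day 30; these genes were picked with their values in view. Pklr was called with median-ratio scaling, with quantile scaling and with no trend in the variance, and all 3 genes were called with voom on recovered reads. The 8 genes called at day 30 and not at day 25 (Slc2a2, Gpi1, Pfkl, Eno1, Pklr, Pck1, Slc37a4 and Khk) are not shown to differ in their response between the days.

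Ratios of enzymes that run opposing steps were compared in single mice. Pklr over Pck1, the last step of glycolysis over its bypass, had a log2 ratio of -4.82, -4.90 and -4.71 in the Con mice and -5.78, -4.97 and -5.42 in the CR mice at day 30. Every CR mouse was lower there, by -0.58 on average, although Pklr itself was higher. At day 25 the groups overlapped, with -5.38, -6.33 and -5.92 in Con and -5.95, -5.88 and -6.00 in CR mice. Pfkl over Fbp1 and Pkm over Pklr overlapped between the groups on both days.

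**Figure D5:**
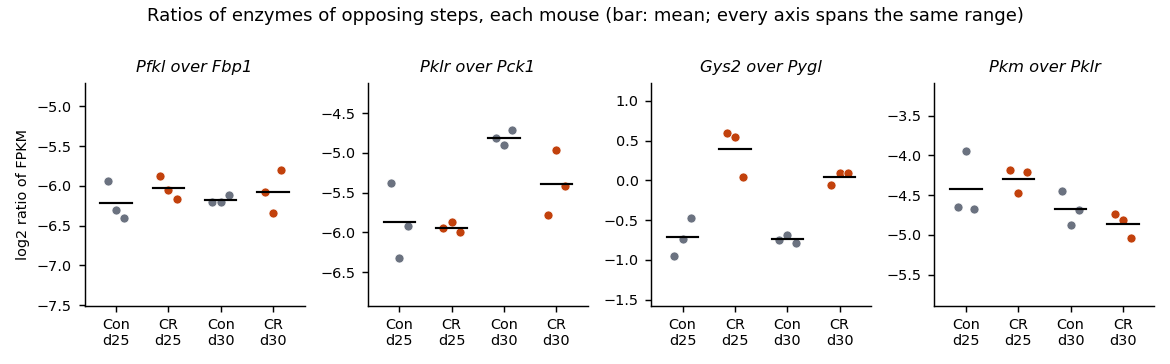
Log2 ratio of the FPKM of enzymes that run opposing steps, or of the isoforms Pkm and Pklr, in every mouse; gray points are Con mice, orange points CR mice, bars are means, and each axis spans the same range of log2 units. Gys2 over Pygl separates CR from Con on both days and Pklr over Pck1 at day 30, and the other ratios overlap.

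Among other enzymes and isoforms of the same pathways, lower calls outnumbered higher ones, as they did over all genes before median-ratio scaling. Of 66 further genes, 41 were tested, of which 2 were higher and 7 lower at day 25 and 3 higher and 6 lower at day 30. These are shares of 4.88% higher and 17.1% lower at day 25, beside 5.6% higher and 9.34% lower over all tested genes, and 7.32% higher and 14.6% lower at day 30, beside 8.33% and 16.4%. The phosphoglucomutases, which interconvert glucose 1-phosphate and glucose 6-phosphate, were not called on either day, with log2 fold changes of 0.14 ± 0.12 and 0.24 ± 0.12 for Pgm2 and 0.00 ± 0.11 and 0.11 ± 0.11 for Pgm1. Pgm2 was called higher over both days together, by 0.19 ± 0.08 (adjusted p = 0.0878), and at day 30 with median-ratio scaling (adjusted p = 0.0572). Gpd1, which links glycolysis to glycerol 3-phosphate, fell more than 2-fold. At day 25, Gpd1 stood at 141, 123 and 187 FPKM in the Con mice and 61.3, 68.9 and 57.05 FPKM in the CR mice. At day 30, Gpd1 stood at 149, 142 and 96.9 FPKM in the Con mice and 41.1, 66.3 and 51.9 FPKM in the CR mice. The groups were separate on both days, with log2 fold changes of -1.24 ± 0.21 (adjusted p = 0.00401) and -1.27 ± 0.21 (adjusted p = 0.00195).

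Of 18 genes of pyruvate entry and oxidation 16 were tested, and 3 were higher and 1 lower at day 25 and 6 higher and 2 lower at day 30. The shares were 18.8% higher and 6.25% lower at day 25 and 37.5% higher and 12.5% lower at day 30, to be read against those of all tested genes above. Pdk4, a kinase that shuts off pyruvate dehydrogenase, passed the 2-fold rule at day 30, from 0.45 to 0.851 FPKM in Con to 1.44 to 3.2 FPKM in CR mice (1.03 ± 0.29, adjusted p = 0.0304), and lost its call without CR10 (adjusted p = 0.11). The Con mice of day 30 were all under the filter's limit of 1 FPKM for Pdk4. The CR mice of that day alone were enough for it to pass. Of 28 regulators of hepatic glucose metabolism, all tested, 5 were higher and 1 lower at day 25 and 5 higher and 4 lower at day 30, or 17.9% higher and 3.57% lower at day 25 and 17.9% higher and 14.3% lower at day 30. Past 2-fold were Igfbp1, a target of FOXO1, at 1.56 ± 0.50 (adjusted p = 0.0741) and 2.49 ± 0.50 (adjusted p = 0.00634), Usp2 at 1.65 ± 0.30 (adjusted p = 0.00628) and 1.12 ± 0.30 (adjusted p = 0.0238), and at day 30 Ppargc1a, the coactivator PGC-1α of gluconeogenic genes, at 1.10 ± 0.24 (adjusted p = 0.00998). At day 25 the Igfbp1 call was lost without Con7 (adjusted p = 0.24) or CR9 (adjusted p = 0.247) and with no filter on low values.

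Some clock transcripts differed between CR and Con in the same libraries. Of 16 clock genes 15 were tested, of which 3 were higher and 2 lower at day 25 and 4 higher and 2 lower at day 30, or 20% higher and 13.3% lower at day 25 and 26.7% higher and 13.3% lower at day 30 beside the 5.6% and 9.34% and the 8.33% and 16.4% of all tested genes. Nr1d1, the repressor REV-ERBα, was 45.9, 50.9 and 39.8 FPKM in the Con mice and 8.79, 6.96 and 8.23 FPKM in the CR mice at day 25, and 40.7 to 57.4 and 8.94 to 9.91 FPKM at day 30. Its log2 fold change was -2.37 ± 0.14 (adjusted p = 5.1e-06) and -2.28 ± 0.14 (adjusted p = 4.02e-06), while Cry1 rose by 1.47 ± 0.16 (adjusted p = 0.000386) and 1.63 ± 0.16 (adjusted p = 7.6e-05) and Per2 by 1.35 ± 0.15 (adjusted p = 0.000386) and 0.97 ± 0.15 (adjusted p = 0.00132). Ciart was called past 2-fold at day 25 (1.24 ± 0.40, adjusted p = 0.0715), and lost that call without Con7, CR7, CR8 or CR9 (adjusted p up to 0.233) and with no filter on low values. Several of the glucose genes are known to vary with the clock and with meals, and the part of either in the differences above was not tested.

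Markers of the liver's cell types were read beside these results. The summed FPKM of 9 hepatocyte markers, led by albumin, were higher in every CR mouse than in any Con mouse of its day, at 48830 to 55730 against 57350 to 60440 at day 25 and 40300 to 49810 against 59220 to 68790 at day 30. Albumin made up most of that sum, and of the 9 markers 2 were called higher at day 25 (Tat and Cyp2e1) and 3 at day 30 (Tat, Alb and Cps1). The shares were 22.2% and 33.3%, beside 5.6% and 8.33% of all tested genes. Apoa1 and Serpina1a had negative fold changes on both days, and Apoa1 was called lower over both days, by -0.23 ± 0.09 (adjusted p = 0.0703). The 6 stellate cell markers summed to 49.9 to 58.4 against 60.5 to 64.8 FPKM at day 25 and 45.7 to 55.6 against 63.04 to 79.5 FPKM at day 30, the CR mice again being higher. Dcn alone, at 40.03 to 65.5 FPKM, made up most of these sums. Dcn and Reln were separate between the groups on both days, whereas Lrat, Col1a1, Col3a1 and Des overlapped on both. Of the 7 macrophage markers 6 were in the table, and their sum was lower in the CR mice at day 25 (25.3 to 46.9 against 18.02 to 23.1 FPKM) and overlapped at day 30. Among them Csf1r, Vsig4 and Clec4f were called lower at day 25. Marco went the other way and was called higher at day 30 (0.79 ± 0.23, adjusted p = 0.0349). The sum of 6 endothelial markers overlapped at day 25 and was higher in the CR mice at day 30 (31.8 to 34.7 against 40.7 to 45.7 FPKM). The 5 lymphocyte markers summed to at most 2.13 FPKM, lower in the CR mice at day 25 and overlapping at day 30, those of muscle to at most 5.58 and of adipocytes to at most 1.504 FPKM, and those of bile duct cells and of red blood cells overlapped on both days. The sum for red blood cells consisted mostly of globins, whereas Alas2, the heme synthesis enzyme of their precursors, was lower in all CR mice than in all Con mice, by -0.69 ± 0.21 (adjusted p = 0.0667) at day 25 and -1.49 ± 0.21 (adjusted p = 0.000974) at day 30. Of 4 markers of exocrine pancreas, Prss1 and Amy2a5 were at 0 in all mice, and the sum of the 4 was 8.34 to 9.49 FPKM in Con and 5.59 to 7.78 FPKM in CR mice at day 30. That sum was almost all Cela1, which was not called at day 30 (-0.38 ± 0.20, adjusted p = 0.214). The part of cell composition in the differences of the glucose genes was not tested.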

How the data were processed

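Liver RNA-Seq of 12 mice was used, 3 each of Con and CR at day 25 and day 30. The authors sequenced 100 bp paired-end libraries on a single lane, converted reads with CASAVA 1.8.2, and mapped them to mm10 with BWA, which does not open reads across splice junctions, so that reads over junctions can be lost. The authors deposited FPKM per gene, scaled to the exon length of 1 transcript per gene. Their layout is that of HOMER, a tool that the methods do not name. Reads that match near-identical copies can be split between genes, and the share of such sequence is given for the genes where it is sizeable. The methods name DESeq2 for the authors' own tests. FPKM are not counts, so no count-based test was the main test here.

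Depth was recovered from the steps of low FPKM, of which 100% of 1500 values per library came out as whole reads within 0.1 read. It limits the precision of genes with few reads. Genes that reached 1 FPKM in 3 or more libraries (10593) were fitted as log2(FPKM + 1). The tool was limma 3.58.1 (R 4.3.3). The variance was moderated along a trend with expression, all 4 groups entered the same fit, and another fit took both days with terms for diet and day. P-values are 2-sided and Benjamini-Hochberg adjusted over all genes tested, called under 0.1, and measure the spread between single mice. Genes called at day 25, day 30 or over both days are described with every mouse or the range, the others by range or count, and genes of other lists where they passed the threshold and 2-fold at either day, with Pgm1 and Pgm2 added. Pfkm, Phkb, Gaa, Apoa1, Serpina1a and Alas2 were named after their values were seen. Some genes of these lists are not reported here. The genes and lists were chosen with earlier results of these data known. The code was tested on simulated data.

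Replicate numbers in the labels at day 25 belong to different animals. Same-numbered Con and CR mice deviated together from their group means over genes, with correlations of 0.106 to 0.368, so a fit with this number as a block was run beside the unblocked fit. At day 30 the labels do not tell the Con mice apart and no block was fitted. Shared sequence was counted as 100-base stretches of the GENCODE M21 transcript that occur in a transcript of another gene on either strand. Promoter sequences are RefSeq, GRCm38.p6. Figures were made with Python 3.11.15 and matplotlib 3.10.9. Alternatives were another pseudocount, other filters, median-ratio, TPM and quantile scaling, no trend, voom on the recovered reads, other thresholds, fits of only the 2 groups compared, and leaving out each mouse.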

Additional observations from a re-analysis of the deposited data

How the results depend on the processing

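The main counts of called genes were 7 at day 25, 14 at day 30 and 19 over both days. At day 25 median-ratio scaling called 11, adding Gpi1, Pfkl, Ppp1r3c and Khk, with the cause not tested, and the 2-fold rule called 1 at day 25, 1 at day 30 and 1 over both days by its own construction. Leaving out single mice gave 4 to 8 at day 25, with 4 without Con9, where Pgk1, Gbe1 and Tkt were lost, and 11 to 15 at day 30 and 17 to 20 over both days. With the replicate number as a block, 8 genes were called at day 25, the addition being Slc37a4, and no other call among the 35 genes changed. Between the days in CR mice, where 0 were called, median-ratio scaling, quantile scaling and the fit with no trend each called 1 (Pklr), voom called 3 (Slc2a2, Pklr and Gbe1), and leaving out a mouse gave 0 to 1 (Slc2a2 without Con11 or Con12). Between the days in Con mice leaving out a mouse gave 0 to 1 (Pck1, lower at day 30, without Con7), and the interaction stayed at 0 in all fits that were run. Of 1323 refitted fold changes of the 19 called genes and of Pfkfb3 and Ppp1r3c, 1251 kept their side of the threshold, 52 lost it, 20 gained it and 0 reversed. Of 882 refits of the other 14 tested genes of the 38, none of them called, 824 stayed uncalled with the same sign, 12 passed the threshold (Tpi1, Slc2a1, Aldoa, Ugp2 or G6pdx) and 46 changed sign without passing it, each from a log2 fold change of at most 0.0937 in size. Without Con7 the day 25 values turned to -0.11 for Fbp1, -0.06 for Gyg and -0.01 for Pck2. Calls kept in every fit at the threshold of 0.1 were those of Gys2, Pfkfb1, Ppp1r3b and Sord at day 25, and at day 30 those of Eno1, Gbe1, Gys2, Khk, Pck1, Pfkfb1, Pklr, Ppp1r3b, Slc2a2, Slc37a4 and Sord. Pgm1, which was not called, reversed its sign at day 25, with -0.004014 under TPM and -0.05365 to 0.04322 when single mice were left out, negative without Con8, Con9 or CR9.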
